A study of Mus musculus with 9 samples.

Results

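The 10 genes described here encode neuropeptides made mainly by neurons of hypothalamic nuclei that lie close to the paraventricular nucleus (PVN). Agrp, Npy, Pomc, Cartpt, Kiss1 and Ghrh mark neurons of the arcuate nucleus, Pmch and Hcrt mark neurons of the lateral hypothalamus, Vip marks neurons of the suprachiasmatic nucleus, and Gal is made in many hypothalamic cell groups, the PVN included. The genes were listed by symbol, with earlier results of these data known. They are 10 of the 27179 genes in the count table, and all 10 were among the 17344 genes with enough counts to be tested. The data are bulk RNA-seq of PVN tissue punches from male wild type C57BL/6J mice (C57BL/6 in the sample labels) that entered the study at 5 weeks of age (postnatal day 35 in the sample labels), with 3 separate mice in each of 3 groups. Control mice ate a diet with 16% of its calories from fat for 12 weeks. HFD mice ate a diet with 60% of its calories from fat for the same 12 weeks. HFD+Mino mice ate the same high fat diet and received minocycline, a tetracycline antibiotic used to dampen microglial activation, at 40 mg/kg/day in their drinking water during the final 6 weeks. No group carried a transgene, the mice had no metabolic testing, and no Control mice were given minocycline, so an effect of the drug on the control diet was not measured.

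These peptides act in the circuits of feeding, arousal and daily timing. Agrp and Npy neurons of the arcuate nucleus promote feeding and Pomc and Cartpt neurons restrain it, and both send axons to the PVN, where melanocortin and Npy receptors are found. Pmch neurons and Hcrt neurons lie side by side in the lateral hypothalamus and perifornical area, where they promote feeding, sleep or wakefulness, and Vip neurons help to keep the suprachiasmatic clock synchronized. Axons carry peptide while most of the mRNA stays in the cell body, so the mRNA in a punch comes mainly from cell bodies inside the piece of tissue taken. In bulk RNA from a punch, fewer neurons of a type and less mRNA per neuron cannot be told apart.

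Total counts ran from 17728590 to 42326213 per library, and levels are given as CPM, the counts of a gene scaled to a common library size with TMM factors (edgeR). Control replicate 1 held almost none of several genes that define its labelled tissue. It held 0.149 CPM of Avp (vasopressin), 0.77 CPM of Oxt (oxytocin) and 0 CPM of Otp (a transcription factor needed to form these neurons). The other 8 libraries held at least 157 CPM of Avp, 427 CPM of Oxt and 0.372 CPM of Otp. Of the other listed PVN genes, Trh (5.49 CPM), Sim1 (0.77 CPM) and Scgn (1.37 CPM) were also lowest in Control replicate 1. The rest of that list was present in it. Crh was at 20.6 CPM against 14.4 to 153 CPM in the others. Pou3f2 was at 11.4 against 7.16 to 72.1 CPM, and Sst at 102 against 137 to 703 CPM. Control replicate 1 also held a summed level of 6 oligodendrocyte genes of 29220 CPM, against 2221 to 6886 CPM in the others. Values that moved by more than 1.5-fold without it are given both ways, as are those of Pmch, Hcrt and Gal. The 45S ribosomal precursor (Rn45s) took 0.35% to 0.43% of counts in the HFD libraries and at most 0.113% in the others. Leaving ribosomal RNA genes (Rn45s and Rn18s) and genes of the mitochondrial genome out of the libraries left the number of called genes among the 10 at 0. Little but the library sizes changes in that step, so it cannot decide what part the Rn45s share had.

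The start regions of Pmch, Hcrt, Pomc and Npy are shown because these genes gave the widest ranges (Pmch and Hcrt) or the lowest FDRs between HFD+Mino and HFD (Npy and Pomc), and because the first 3 share a TATA box whose letters are not in the window of Npy. Each sequence holds the 100 bases before the annotated start in RefSeq (GRCm38.p6), read 5′ to 3′ on the strand of the gene, with the letters TATAAA in capitals. The windows are chr10:88090972-88091071 on the plus strand for Pmch, chr11:100762932-100763031 on the minus strand for Hcrt, chr12:3954845-3954944 on the plus strand for Pomc and chr6:49822610-49822709 on the plus strand for Npy.
Pmch: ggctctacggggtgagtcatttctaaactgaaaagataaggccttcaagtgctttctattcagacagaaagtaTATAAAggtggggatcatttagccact
Hcrt: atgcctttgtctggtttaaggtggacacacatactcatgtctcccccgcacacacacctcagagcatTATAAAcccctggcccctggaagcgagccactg
Pomc: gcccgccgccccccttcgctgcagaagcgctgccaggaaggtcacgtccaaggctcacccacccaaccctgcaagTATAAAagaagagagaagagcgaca
Npy: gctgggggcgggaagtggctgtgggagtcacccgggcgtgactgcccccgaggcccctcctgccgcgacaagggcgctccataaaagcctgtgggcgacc
The first T of the box lay 27 bases before the start of Pmch, 33 before that of Hcrt and 25 before that of Pomc. Promoter sequences were on hand for 9 of the 10 genes, and Agrp had no entry. Over the 250 bases before the start, on both strands, the letters TATAAA were found for 5 of these 9 genes (Ghrh, Hcrt, Pmch, Pomc and Vip) and in 12.4% of the 32851 promoters of all genes. The full cAMP response element TGACGTCA was found for Cartpt alone among the 9 and in 1.55% of all promoters. Its shorter form TGACG, which the full element contains, was found for Cartpt, Ghrh, Kiss1 and Vip and in 17.8% of all promoters. The GC box GGGCGG was found for Cartpt, Gal, Hcrt, Npy and Pomc and in 32.7% of promoters. The letters CACGTG, an E box bound by clock factors among others, were found for none of the 9 genes and in 6.02% of promoters. These matches are descriptions of sequence only.

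The genes lie on 9 chromosomes (GRCm38.p6). Pmch (chr10:88091072-88092374) and Vip (chr10:5639193-5647617) share a chromosome but are far apart. The others are Kiss1 (chr1:133321887-133329722), Ghrh (chr2:157329496-157348725), Npy (chr6:49822710-49829507), Agrp (chr8:105566695-105579845), Hcrt (chr11:100761693-100762931), Pomc (chr12:3954945-3960643), Cartpt (chr13:99898483-99910179) and Gal (chr19:3409915-3414544). By the GENCODE M21 annotation, 435 of the 749 exon bases of Pmch lie antisense to exons of Parpbp, all 779 exon bases of Kiss1 lie inside a same-strand gene model, Gm28040, and 114 of the 1013 exon bases of Agrp overlap Ctcf and Gm5914. Whether the counting used strand is not given in the sources used here, so reads of these genes and of their overlapping partners cannot be told apart.

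Compared per kilobase of exon, the median level over the 9 libraries was highest for Gal at 84.2 CPM per kb. Cartpt followed at 41.8, Pmch at 30.0, Npy at 22.2, Ghrh at 8.55, Pomc at 3.77, Hcrt at 2.12, Kiss1 at 0.811, Vip at 0.708 and Agrp at 0.613 CPM per kb. The ranges of all neighbours in this order overlapped, so the order is a description. It also changed with the library. Pmch ranked first and Hcrt second per kb in Control replicates 1 and 2, with 3418 CPM per kb of Pmch in Control replicate 2. Gal ranked first in each of the other 7 libraries, and Cartpt second in the 6 HFD and HFD+Mino libraries. The 10 genes together took 0.402% of all counts in Control replicate 2, and 0.0111% to 0.0551% in the other 8 libraries.

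Agrp (agouti-related peptide, which blocks the melanocortin receptors that the Pomc product activates) was among the lowest of the 10. Its level was 0.621, 1.19 and 0.854 CPM in Control replicates 1 to 3, 0.602, 0.145 and 0.423 CPM in HFD, and 4.76, 2.30 and 0.382 CPM in HFD+Mino. Each HFD mouse was below each Control mouse, by as little as 0.602 against 0.621 CPM, and HFD+Mino replicate 3 fell among the HFD mice. Behind these levels were 5 to 17 counts in HFD and 14 to 139 counts in HFD+Mino, so single mice rest on few reads.

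Npy (neuropeptide Y, released with Agrp by the same arcuate neurons and also made by interneurons elsewhere) was at 9.54, 18.2 and 5.48 CPM in Control, 12.5, 8.67 and 8.74 CPM in HFD, and 28.9, 85.0 and 24.4 CPM in HFD+Mino. All 3 HFD+Mino mice were above all 6 other mice. The Npy to Agrp ratio of CPM was 6.41 to 15.4 in Control mice, 20.6 to 59.8 in HFD mice and 6.08 to 63.9 in HFD+Mino mice, so the levels of the 2 genes did not keep a fixed proportion.

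Pomc (the precursor of α-MSH and β-endorphin) was at 4.97, 3.81 and 4.06 CPM in Control, 3.92, 5.10 and 3.39 CPM in HFD, and 20.7, 12.3 and 6.34 CPM in HFD+Mino. The Control and HFD mice shared a narrow range of 3.39 to 5.10 CPM, and all 3 HFD+Mino mice were above it. Cartpt (the precursor of the CART peptides, present in Pomc neurons, in Pmch neurons and in parts of the PVN) was at 18.4, 356 and 33.3 CPM in Control, 53.4, 37.8 and 42.5 CPM in HFD, and 215, 198 and 68.1 CPM in HFD+Mino. Control replicate 2 held the highest level of all and Control replicate 1 the lowest, while the 3 HFD+Mino mice were above the 3 HFD mice. The Cartpt to Pomc ratio was 93.5 in Control replicate 2 and 3.70 to 16.1 in the other 8 libraries.

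Ghrh (growth hormone-releasing hormone) was at 4.12, 31.5 and 5.71 CPM in Control, 4.62, 2.12 and 4.56 CPM in HFD, and 48.0, 64.0 and 6.39 CPM in HFD+Mino. The 3 highest levels, all 31.5 CPM or more, were those of Control replicate 2 and of HFD+Mino replicates 1 and 2. Kiss1 (kisspeptin, which drives gonadotropin-releasing hormone neurons) was at 0.149, 0.339 and 0.0883 CPM in Control, 1.36, 0.638 and 0.124 CPM in HFD, and 1.81, 0.632 and 3.06 CPM in HFD+Mino. All Control mice were below all HFD+Mino mice, on 3 to 12 Control counts, and the HFD mice spread over both.

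Pmch (melanin-concentrating hormone) and Hcrt (hypocretin, also called orexin) had the widest spread. Pmch was at 391, 2560 and 21.0 CPM in Control, 0.803, 1.16 and 22.5 CPM in HFD, and 34.4, 51.2 and 1.23 CPM in HFD+Mino. The highest library held 3188 times the level of the lowest. HFD replicate 3 was above Control replicate 3, so these groups overlapped. Hcrt was at 73.4, 813 and 1.59 CPM in Control, 0.502, 0.174 and 0.498 CPM in HFD, and 3.01, 7.02 and 0.164 CPM in HFD+Mino. Its highest library held 4957 times the level of the lowest, and all 3 Control mice were above all 3 HFD mice. The log2 range over the 9 libraries was 11.47 for Pmch and 11.59 for Hcrt, against a median of 1.77 over all tested genes. Only 0.0173% of tested genes had a wider range than Pmch, and 0.0115% than Hcrt.

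Pmch and Hcrt took 86.8% and 87.5% of the summed counts of the 10 genes in Control replicates 1 and 2. In the other 7 libraries this share was 0.345% to 22.4%. The 2 Control libraries with the most Pmch and Hcrt were thus Control replicate 1, which held almost no Avp, Oxt or Otp, and Control replicate 2, which held the lowest Avp and Oxt of the remaining 8 libraries. Antisense Parpbp was at 14.6 CPM in Control replicate 2, 1.99 in Control replicate 1 and at most 0.853 CPM in the others, and its part in the Pmch counts was not tested.

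Vip (vasoactive intestinal peptide) was at 7.13, 2.65 and 0.324 CPM in Control, 2.41, 0.928 and 1.05 CPM in HFD, and 2.70, 3.49 and 1.64 CPM in HFD+Mino. The 3 groups overlapped, and the Control mice alone spanned the full range. Gal (galanin) was at 25.4, 66.4 and 28.4 CPM in Control, 155, 56.1 and 26.4 CPM in HFD, and 167, 203 and 292 CPM in HFD+Mino. All HFD+Mino mice were above all Control and HFD mice, and HFD replicate 1 was the nearest.

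**Figure D1:**
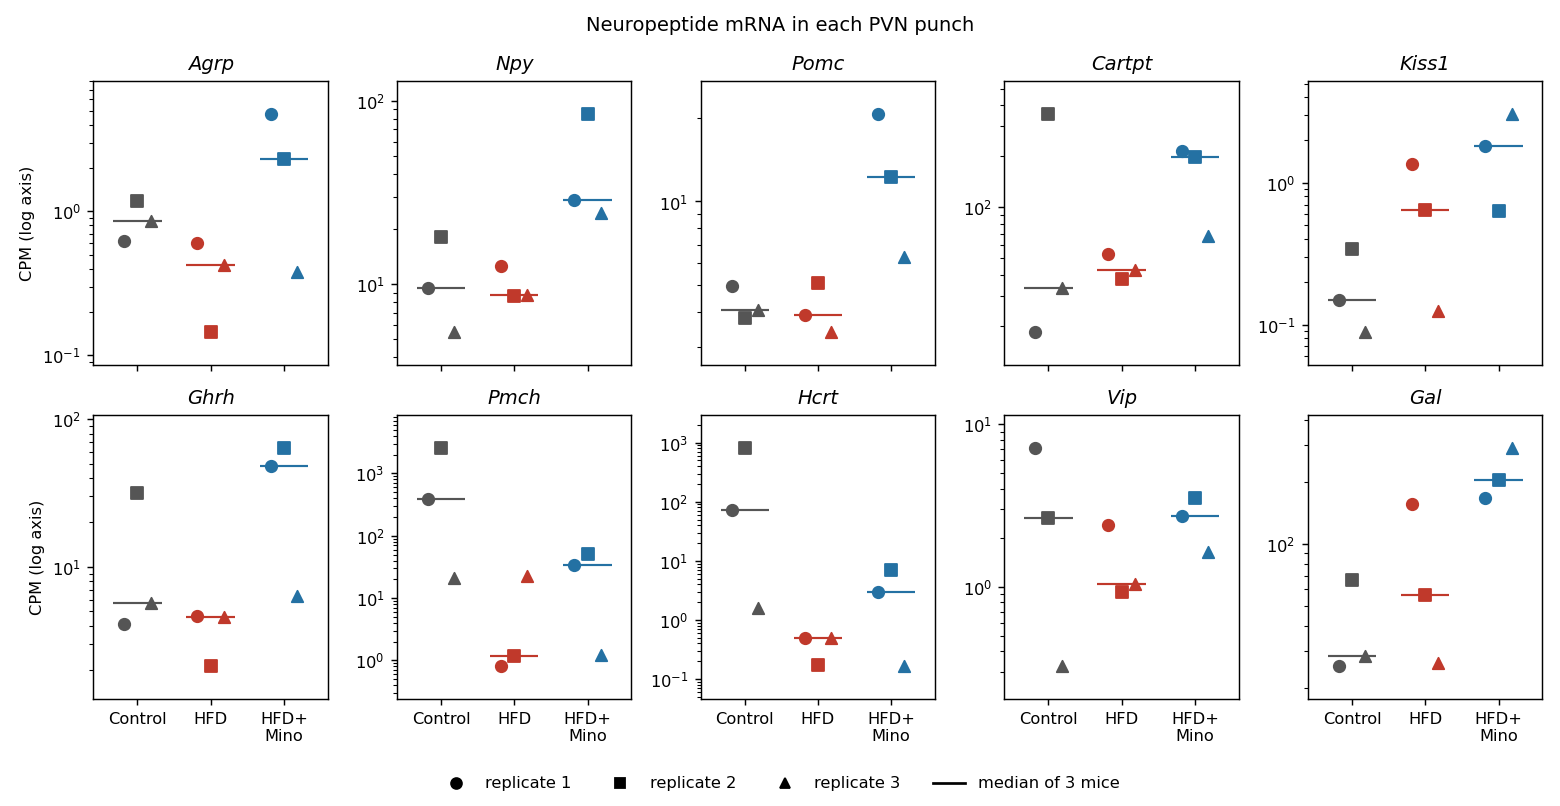
Level of each of the 10 genes in each PVN punch, as CPM on a log axis, with the 3 mice of each group as separate markers by replicate number and a bar at the group median. Pmch and Hcrt spread over more than 3 steps of the log axis, with Control replicates 1 and 2 at the top, and all 3 HFD+Mino mice lie above all other mice for Npy, Pomc and Gal.

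The first comparison, HFD against Control, asked what the high fat diet changed. None of the 10 genes passed an FDR under 0.01 with at least 1.5-fold in edgeR's quasi-likelihood test, while 302 of 17344 genes did (1.74%). At an unadjusted p under 0.05 there were 2 of the 10 and 3554 of all tested genes, and DESeq2 called 2 of the 10 (Pmch and Hcrt) and 1198 of all. DESeq2 gave no FDR for Cartpt in the 3 pairwise comparisons, and Cartpt counts there as not called. Hcrt had a mean of 0.391 ± 0.188 CPM (SD, n = 3) in HFD against 296 ± 449 CPM in Control, a log2 fold change of -9.58 ± 2.06 (SE, edgeR FDR 0.0219). Pmch had a mean of 8.14 ± 12.4 CPM in HFD against 990 ± 1372 CPM in Control, a log2 fold change of -6.91 ± 1.95 (edgeR FDR 0.0656). The Control SD exceeded the Control mean for both genes.

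The size of both differences rested on Control replicate 2. Without it the log2 fold change was -6.59 for Hcrt (edgeR FDR 0.064) and -4.64 for Pmch (FDR 0.218). Without Control replicate 1, the library with almost no Avp, Oxt or Otp, it was -10.04 for Hcrt (FDR 0.0225) and -7.29 for Pmch (FDR 0.0837). Without Control replicate 3, Hcrt reached FDR 0.00446 at -10.16, in a fit that called 304 genes. Without HFD replicate 3, the HFD mouse with the most Pmch, the value for Pmch was -9.95 (FDR 0.0689). With the replicate numbers shared by Control and HFD+Mino as a block, Hcrt passed at -6.98 (FDR 0.000254) and Pmch was at -5.11 (FDR 0.0146). That fit called 1078 genes. The block was chosen from these counts and takes up part of the spread between Control mice. HFD mice were not matched to it, so its FDRs do not measure the full spread between mice.

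The other 8 genes had edgeR FDRs of 0.247 or more in this comparison. The log2 fold change was -1.21 ± 0.84 for Agrp, -1.61 ± 0.88 for Cartpt, -1.87 ± 0.86 for Ghrh and -1.22 ± 0.83 for Vip. It was 1.82 ± 0.93 for Kiss1 and 0.98 ± 0.57 for Gal, and near 0 for Npy (-0.15 ± 0.51) and Pomc (-0.05 ± 0.40). Several of these values moved with a single mouse. Without Control replicate 2, Cartpt turned to 0.80 (FDR 0.47), Ghrh was at -0.38 (FDR 0.854) and Kiss1 at 2.5 (FDR 0.352). Without Control replicate 1, Vip was at -0.05 (FDR 0.992) and Gal at 0.73 (FDR 0.712). Without HFD replicate 1, Gal was at 0.04 (FDR 0.976) and Kiss1 at 0.97 (FDR 0.685). The median of the 10 log2 fold changes was -1.22, against 0.00434 over all tested genes. The 3 HFD mice did not overlap the 3 Control mice for 2 of the 10 genes (Agrp and Hcrt, both lower in HFD), while 35.7% of all tested genes showed no overlap, so this share of the 10 was not above the background.

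The comparison of HFD+Mino with HFD asked what minocycline changed on the high fat diet. Again none of the 10 genes passed in edgeR, while 719 of all tested genes did (4.15%). At an unadjusted p under 0.05 there were 5 of the 10 and 7171 of all, and DESeq2 called 4 of the 10 (Agrp, Npy, Pomc and Ghrh) and 3992 of all. All 10 fitted values were positive, with a median of 1.83 against 0.00886 over all tested genes. The mean of Npy was 46.1 ± 33.8 CPM (SD, n = 3) in HFD+Mino against 9.99 ± 2.22 CPM in HFD, a log2 fold change of 2.21 ± 0.53 (edgeR FDR 0.0155). For Pomc the means were 13.1 ± 7.21 and 4.14 ± 0.880 CPM (1.66 ± 0.41, edgeR FDR 0.017). For Ghrh they were 39.5 ± 29.7 and 3.76 ± 1.43 CPM (3.39 ± 0.91, edgeR FDR 0.0215). For Agrp they were 2.48 ± 2.19 and 0.390 ± 0.230 CPM (2.68 ± 0.86, edgeR FDR 0.0399).

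These 4 arcuate genes were lower in HFD+Mino replicate 3 than in the other 2 mice of that group. Without that mouse all 4 passed in edgeR, with log2 fold changes of 2.52 for Npy (FDR 0.00409), 1.99 for Pomc (FDR 0.00175), 3.90 for Ghrh (FDR 0.00323) and 3.20 for Agrp (FDR 0.0048), in a fit that called 3815 genes. Without HFD+Mino replicate 1 the value of Agrp was 1.80 (FDR 0.186) and that of Pomc 1.17 (FDR 0.0739). Without HFD+Mino replicate 2 the value of Npy was 1.43 (FDR 0.0464). With the replicate block on Control and HFD+Mino, Npy (1.98, FDR 0.000383), Pomc (1.53, FDR 0.00524) and Ghrh (2.98, FDR 0.00333) passed and Agrp did not (2.31, FDR 0.0536), in a fit that called 4441 genes. That block takes up part of the spread between HFD+Mino mice, so these FDRs do not measure all of it. With a smooth trend on exon length removed from each library, the values were lower, at 1.09 for Npy (FDR 0.0991), 0.70 for Pomc (FDR 0.14), 2.09 for Ghrh (FDR 0.0796) and 1.48 for Agrp (FDR 0.193).

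HFD+Mino replicates 1 and 2, in which these 4 genes were highest within the group, also stood apart in other measures. Counts of the mitochondrial genome took 4.68% and 6.21% of their libraries, against 1.21% to 3.67% in the other 7. Their TMM factors were the lowest at 0.836 and 0.879, against 0.952 to 1.13. The summed level of 5 endothelial genes was 414 and 394 CPM in them, 158 CPM in HFD+Mino replicate 3 and 146 to 312 CPM in the Control and HFD libraries. With ribosomal and mitochondrial genes left out of the libraries, the log2 fold changes were 2.21 for Npy, 1.66 for Pomc, 3.39 for Ghrh and 2.68 for Agrp, as with them. That step changes little but the library sizes, so it cannot decide what part the mitochondrial share had in these values. The part of the mitochondrial share, of the TMM factors and of the endothelial genes in the arcuate values was not tested.

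Of the remaining 6 genes, Gal had a log2 fold change of 1.48 ± 0.57 (FDR 0.0745), Cartpt 1.85 ± 0.88 (FDR 0.137), Hcrt 3.12 ± 1.75 (FDR 0.202), Kiss1 1.41 ± 0.88 (FDR 0.247), Pmch 1.81 ± 1.56 (FDR 0.409) and Vip 0.85 ± 0.82 (FDR 0.464). Without HFD replicate 1, Gal was at 2.41 (FDR 0.0332) and Kiss1 at 2.27 (FDR 0.14). Pmch was at 4.85 (FDR 0.117) without HFD replicate 3 and at 1.10 (FDR 0.684) without HFD+Mino replicate 2, where Hcrt was at 2.01 (FDR 0.495). With the replicate block on Control and HFD+Mino, Hcrt was at 1.49 (FDR 0.11) and Pmch at 0.68 (FDR 0.628). With the length trend removed, Gal was at 0.71, Cartpt at 0.86, Hcrt at 1.86, Kiss1 at 0.74 and Pmch at 0.41, each at FDR 0.468 or more. The 3 HFD+Mino mice were above the 3 HFD mice without overlap for 5 of the 10 genes (Npy, Pomc, Cartpt, Ghrh and Gal). Among all tested genes 46.7% showed no overlap in either direction, so the count of 5 is near the background.

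The comparison of HFD+Mino with Control asked how far the treated mice were from mice on the control diet. None of the 10 genes and none of all tested genes passed in edgeR (0%). At an unadjusted p under 0.05 there were 6 of the 10 and 3697 of all, and DESeq2 called 4 of the 10 (Npy, Pomc, Hcrt and Gal) and 276 of all. Gal had a mean of 221 ± 64.3 CPM (SD, n = 3) in HFD+Mino against 40.1 ± 22.8 CPM in Control, a log2 fold change of 2.46 ± 0.59 (edgeR FDR 0.132). The value was 2.06 ± 0.53 for Npy, 1.61 ± 0.41 for Pomc and -6.46 ± 1.75 for Hcrt, each at FDR 0.132, and 3.24 ± 0.95 for Kiss1 (FDR 0.133). Pmch was at -5.10 ± 1.79 (FDR 0.157), Agrp at 1.48 (FDR 0.307), Ghrh at 1.52 (FDR 0.311), Vip at -0.37 (FDR 0.807) and Cartpt at 0.24 (FDR 0.888).

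Control replicate 2 again set the size of the lateral hypothalamic values, which were -3.50 for Hcrt and -2.86 for Pmch without it. Without Control replicate 1 they were -6.92 and -5.48, and Gal was at 2.22, each at FDR 0.147 or more. Vip turned to 0.80 (FDR 0.579) without Control replicate 1, and Cartpt was at 2.62 and Ghrh at 2.98 (FDR 0.26 each) without Control replicate 2. Agrp was at 0.59 (FDR 0.76) without HFD+Mino replicate 1, and Npy at 1.27 (FDR 0.28) without HFD+Mino replicate 2. Without HFD+Mino replicate 3, Pomc passed at 1.94 (FDR 0.00548) and Kiss1 was at 2.65 (FDR 0.0924), in a fit that called 1120 genes. With the replicate block, Npy at 2.00 and Hcrt at -5.50 passed (FDR 0.00509 each), in a fit that called 551 genes. Matched by that number, Pmch and Hcrt were higher in the Control mouse than in the HFD+Mino mouse in 3 of 3 pairs. That matching was chosen from these counts, and unmatched the groups overlapped. Control replicate 3 (21.0 CPM of Pmch, 1.59 CPM of Hcrt) was below HFD+Mino replicates 1 and 2 for both genes. The median of the 10 log2 fold changes was 1.5, against -0.02 over all tested genes. HFD+Mino lay above Control without overlap for 4 of the 10 (Npy, Pomc, Kiss1 and Gal), while 19.1% of all tested genes showed no overlap.

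The 3-way test asked whether any group differed, and a call also required HFD to be the highest or lowest group and to differ by 1.5-fold or more from the average of the 3 group log2 means. None of the 10 genes passed in edgeR, against 369 of all tested genes (2.13%). At an unadjusted p under 0.05 there were 8 of the 10 and 6762 of all, and DESeq2 called 3 of the 10 (Npy, Pmch and Hcrt) and 2366 of all. The lowest edgeR FDRs of the 10 were 0.014 for Hcrt, 0.0199 for Npy and 0.0219 for Pomc, followed by Gal (0.0303), Pmch (0.0314), Ghrh (0.0463), Kiss1 (0.0661), Agrp (0.0808), Cartpt (0.254) and Vip (0.491). With the replicate block, whose FDRs leave out part of the spread between mice, Ghrh, Pmch and Hcrt passed, in a fit that called 2283 of 17344 genes. Without HFD+Mino replicate 3, Agrp, Npy, Pomc, Ghrh and Hcrt passed, in a fit that called 2396 of 17836 genes. Without Control replicate 3 Hcrt passed, in a fit that called 486 of 17924 genes. The 3 pairwise comparisons share groups and are not independent of each other.

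**Figure D2:**
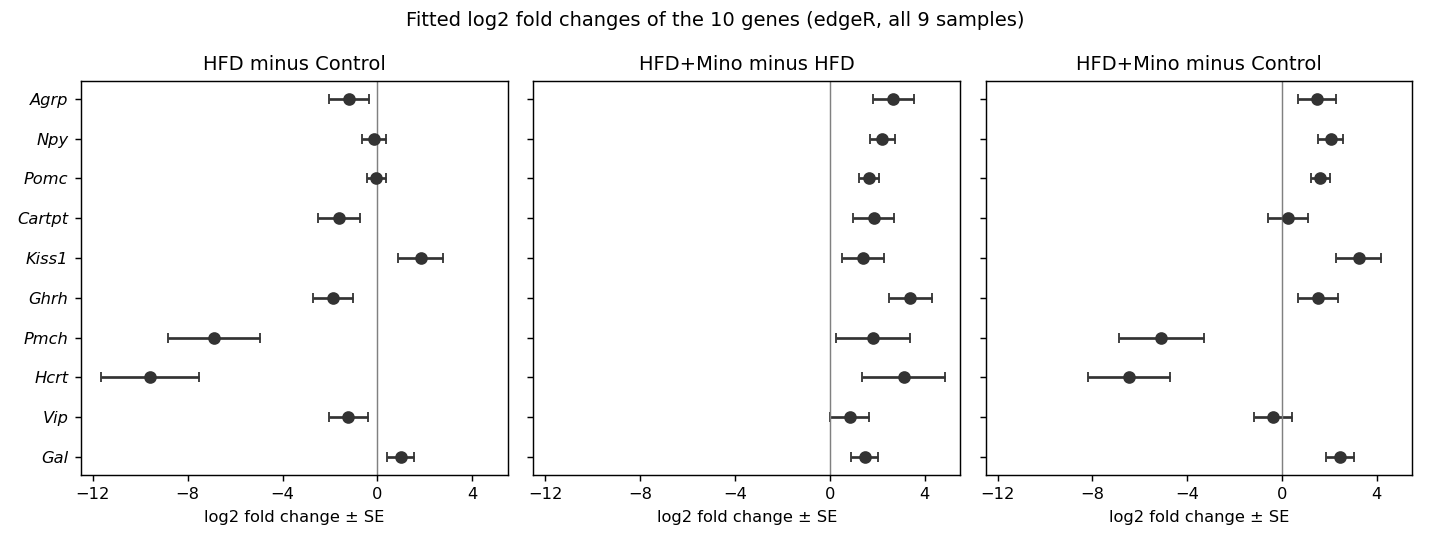
Fitted log2 fold changes of the 10 genes with their standard errors in the 3 pairwise comparisons, from edgeR on all 9 libraries, on a common axis with a line at 0. Pmch and Hcrt reach -6.91 and -9.58 in HFD minus Control with standard errors near 2, and all 10 points lie right of 0 in HFD+Mino minus HFD.

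Whether genes of the same neurons or nucleus moved together over the 9 libraries was asked for 6 pairs, on log2(CPM + 0.1). Pmch and Hcrt, which neighbouring but separate neurons make, had a Pearson r of 0.943 (exact permutation p 0.000124, adjusted over the 6 pairs 0.000744) and a Spearman rho of 0.85 (exact permutation p 0.00607, adjusted 0.0364). Without Control replicate 2 and HFD replicate 1, the 2 libraries farthest from the median of Pmch, r was 0.933. Control replicate 1 was kept in all of these values. Centred on the group means, r was 0.872 (exact permutation p 0.0185, adjusted 0.111). The Pmch to Hcrt ratio still ran from 1.60 in HFD replicate 1 to 45.1 in HFD replicate 3.

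**Figure D3:**
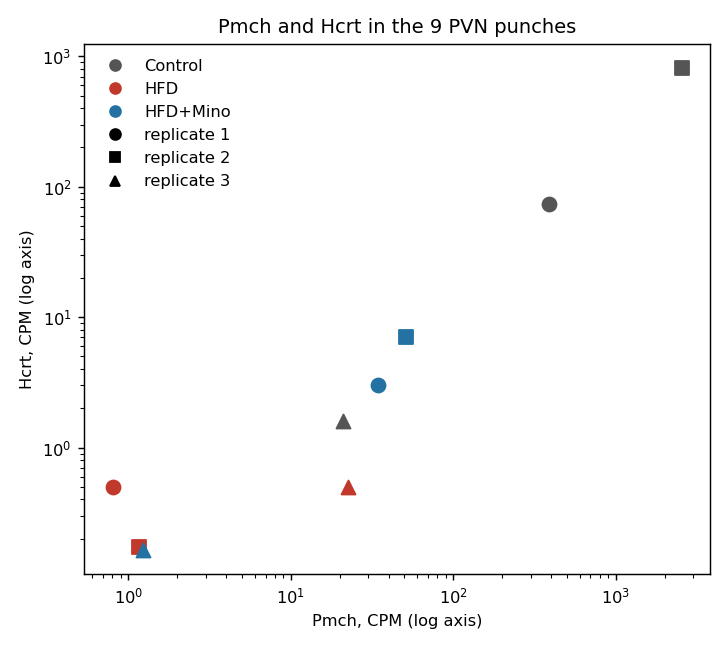
Pmch against Hcrt in the 9 PVN punches, in CPM on 2 log axes, with groups by colour and replicate numbers by marker. The points rise together from HFD and HFD+Mino replicate 3 at the lower left to Control replicate 2 at the upper right, and HFD replicate 3 lies to the right of the others at 22.5 CPM of Pmch and 0.498 CPM of Hcrt.

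The other 5 pairs did not pass. Agrp and Pomc, of separate arcuate neurons, had r 0.743 (exact permutation p 0.024, adjusted 0.0719) and rho 0.30 (adjusted 0.524). That value rested on HFD+Mino replicates 1 and 2, and r was -0.465 without them. Agrp and Npy, which the same neurons make, had r 0.614 (exact permutation p 0.0807, adjusted 0.161) and rho 0.533, with r 0.0737 without the same 2 mice. Pomc and Cartpt had r 0.501 (adjusted exact permutation p 0.247) and -0.222 without those mice. Pmch and Cartpt had r 0.371 (adjusted exact permutation p 0.324) and -0.0729 without Control replicate 2 and HFD replicate 1. Agrp and Pmch, of different nuclei, had r 0.461 (adjusted exact permutation p 0.254) and 0.695 without HFD+Mino replicates 1 and 2.

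For the 3 members with the widest log2 range, the tested genes with the most similar profile over the 9 libraries were listed by Pearson r, as a description with no test. The 3 nearest to Hcrt were Olfr558 (r 0.955), Pmch (0.943) and Pbx3 (0.898). The 3 nearest to Pmch were Olfr558 (0.972), Nkx2-2 (0.95) and Hcrt (0.943). Out of all tested genes, each of Pmch and Hcrt was thus among the 3 nearest to the other. The 3 nearest to Ghrh were 2410004I01Rik (0.976), Icam4 (0.964) and Scpep1 (0.959).

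Genes of the PVN itself differed between the same libraries. Avp had means of 383 ± 532 CPM (SD, n = 3) in Control, 1354 ± 707 CPM in HFD and 17149 ± 14110 CPM in HFD+Mino, where replicate 1 held 28050 CPM, replicate 2 held 22180 CPM and replicate 3 held 1218 CPM. Oxt had means of 540 ± 603, 1392 ± 24.3 and 6320 ± 4299 CPM, and Crh (corticotropin-releasing hormone) 30.4 ± 19.2, 38.0 ± 20.4 and 102 ± 67.3 CPM. Trh (thyrotropin-releasing hormone) had means of 214 ± 181, 336 ± 105 and 661 ± 178 CPM, and Sim1 (a transcription factor of PVN neurons) 5.69 ± 5.23, 16.3 ± 5.42 and 16.1 ± 17.4 CPM. HFD+Mino replicates 1 and 2, the mice with the most Avp, Oxt and Crh, were also those with the most Agrp, Pomc and Ghrh. None of the 9 PVN genes listed passed in any of the 4 edgeR tests, and their part in the arcuate values was not tested.

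**Figure D4:**
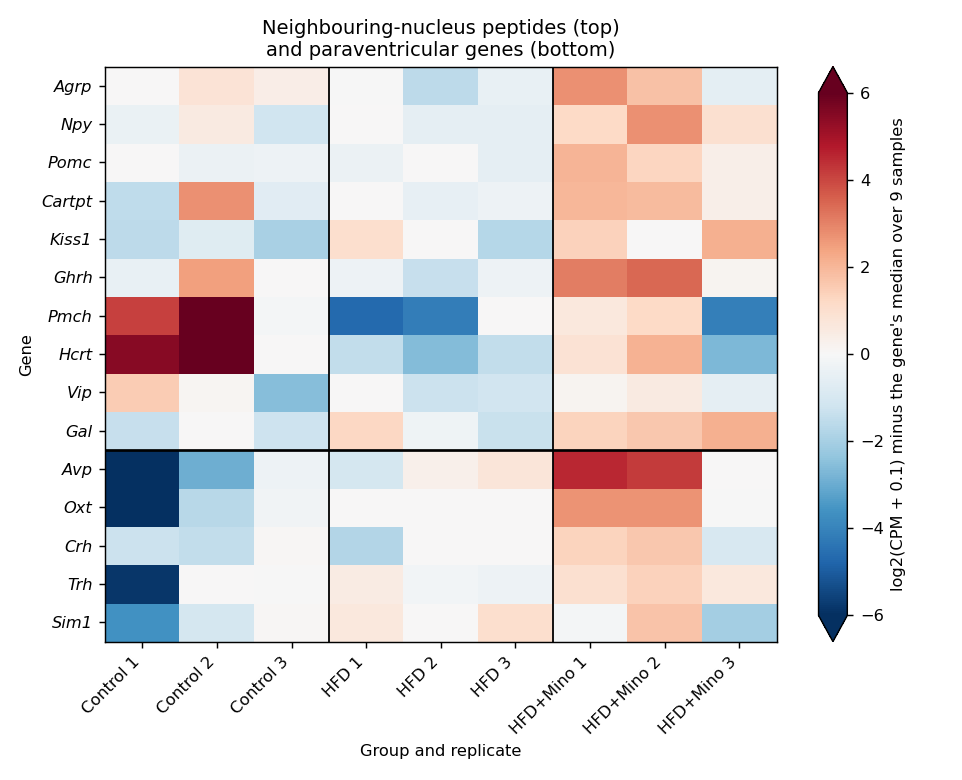
Level of the 10 genes (above the line) and of 5 PVN genes (below it) in each library, as log2(CPM + 0.1) minus the median of that gene over the 9 libraries, with red above and blue below the median. HFD+Mino replicates 1 and 2 are high for Agrp, Pomc and Ghrh and for Avp, Oxt and Crh, and Control replicate 1 is high for Pmch and Hcrt and lowest for Avp, Oxt, Trh and Sim1.

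The receptors of these peptides were measured in the same tissue. Of 17 listed receptor genes 14 had enough counts to be tested, and Npy6r, Ghrhr and Galr3 had not. None of the 14 passed in any of the 4 edgeR tests. Their median log2 fold change was 0.40 in HFD against Control, -0.14 in HFD+Mino against HFD and 0.22 in HFD+Mino against Control. Mc4r, the melanocortin receptor through which α-MSH and Agrp act on PVN neurons, was at 2.14, 11.1 and 11.4 CPM in Control, 6.38, 7.02 and 9.11 CPM in HFD, and 19.3, 29.6 and 7.38 CPM in HFD+Mino (edgeR 3-way FDR 0.167). Its highest levels were again in HFD+Mino replicates 1 and 2, and its lowest in Control replicate 1. Galr1, a galanin receptor, had means of 5.92 ± 2.91 CPM (SD, n = 3) in Control, 12.4 ± 2.55 CPM in HFD and 9.28 ± 3.62 CPM in HFD+Mino (edgeR 3-way FDR 0.171). Vipr1, a receptor for Vip, had means of 0.690 ± 0.170, 0.969 ± 0.517 and 0.146 ± 0.252 CPM (edgeR 3-way FDR 0.242).

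The machinery that turns these precursors into peptides and stores them was also listed, as 17 genes of prohormone processing and dense-core vesicles. All 17 were tested and none passed in any of the 4 edgeR tests, with medians of 0.09, -0.07 and 0.09 in the 3 comparisons in the order above. Scg5 (the 7B2 protein, a chaperone of the prohormone convertase encoded by Pcsk2) had means of 273 ± 39.96 CPM (SD, n = 3) in Control, 217 ± 7.20 CPM in HFD and 537 ± 214 CPM in HFD+Mino (edgeR 3-way FDR 0.0242). Slc18a2, the vesicular monoamine transporter, had means of 43.5 ± 12.7, 20.6 ± 6.91 and 13.0 ± 6.68 CPM (FDR 0.0306). Pam, which amidates the ends of peptides such as those from Npy, Vip and Gal, had means of 42.0 ± 7.54, 87.8 ± 11.8 and 67.2 ± 20.9 CPM (FDR 0.0358).

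Other genes of the same nuclei, and markers of other cell types a punch could hold, were listed for comparison. Of the 10 tested of 12 further arcuate genes none passed, with medians of -0.09, -1.11 and -0.76 in the 3 comparisons, against -0.68, 2.03 and 1.56 for the 6 arcuate peptides. Of 8 further lateral hypothalamic and zona incerta genes none passed, with medians of -0.47, -0.06 and -0.29, against -8.24, 2.46 and -5.78 for Pmch and Hcrt. Of 10 further suprachiasmatic genes only Rorb passed, a nuclear receptor that is also expressed in thalamus and cortex. Rorb was at 20.5, 18.5 and 25.5 CPM in Control, 62.9, 61.8 and 68.8 CPM in HFD, and 25.2, 20.7 and 27.2 CPM in HFD+Mino, and passed in HFD against Control (1.58 ± 0.22, edgeR FDR 0.00219), in HFD+Mino against HFD (-1.41 ± 0.22, FDR 0.00409) and in the 3-way test (FDR 0.0026). The lists of the ventromedial and dorsomedial nuclei (6 genes), thalamus (8), pituitary (3 tested of 8), neurons in general (10), astrocytes (6), oligodendrocytes (6), microglia (6), endothelial cells (5), ependymal cells and tanycytes (6) and choroid plexus (5) held no gene that passed.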

How the data were processed

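PVN punches of 9 mice were sequenced from SMARTer cDNA libraries. The authors aligned reads to the mouse genome (mm10, GRCm38) with HISAT2 and deposited raw gene counts from featureCounts, which the submitters' processing notes name beside edgeR. Versions, strand setting and handling of multiply mapped reads are not given in the sources used here. All 9 count columns were used, grouped by sample title, and 0 columns were left out.

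Counts were analysed in R 4.3.3 with edgeR 4.0.16 (limma 3.58.1): filterByExpr (minimum count 10), TMM scaling and the quasi-likelihood test, with all 9 libraries in 1 model of the groups. A call needed an FDR under 0.01 over all tested genes and at least 1.5-fold. P-values of the group tests without a block measure the spread between mice. With a block, the spread shared by mice of the same number is taken out first. DESeq2 1.42.0, RLE scaling, no filter, other thresholds, GC and length trends (span 0.3), ribosomal and mitochondrial genes left out, 6-library fits, replicate blocks and leaving out each mouse were alternatives. The edgeR step was also run on counts simulated with a smooth trend of spread over genes. These do not carry the spread of single genes such as Pmch and Hcrt, so that run does not bear on their results. Python 3.11.15 with pandas 2.3.3, numpy 2.4.6, scipy 1.17.1 and matplotlib 3.10.9 gave correlations, sequences and plots. Exon lengths came from GENCODE M21, and positions and promoters from RefSeq (GRCm38.p6).

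All 10 members were named, with the called genes, or else the 3 with the lowest 3-way p, of the receptor and processing lists, 5 PVN genes, and at most 2 genes of each other list. Otp, Scgn, Sst, Pou3f2 and Parpbp were named after their values were seen. The members and lists were chosen with earlier results of these data known. Replicate numbers of the titles were checked for pairing by correlating deviations from group means over genes. Same-numbered Control and HFD+Mino libraries had r of 0.147, 0.179 and 0.314, and their differently numbered pairs -0.176 to 0.0315. The block was thus chosen from the counts, since neither the labels nor the methods name a shared batch. Differently numbered pairs with HFD reached 0.171 (Control replicate 2 with HFD replicate 1), so these r do not establish pairs. The HFD numbers had r of -0.14, -0.112 and -0.00771 with Control and -0.155, -0.14 and -0.0447 with HFD+Mino. They were blocked only in the alternative fit with the block on all 9 libraries. The count columns number the HFD mice differently from the titles, so that block follows the titles alone. The blocked fits were set beside the results where they changed a call, and are not separate evidence.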

Additional observations from a re-analysis of the deposited data

How the results depend on the processing

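The number of the 10 genes called, 0 in all 4 edgeR tests, changed with the tool, the filter, the threshold and the pairing. In the order HFD against Control, HFD+Mino against HFD, HFD+Mino against Control and 3-way test, it was 2, 4, 4 and 3 with DESeq2, with 1198, 3992, 276 and 2366 genes called in all. With no filter on low counts it was 2, 3, 0 and 4, with 481, 1905, 1 and 1299 in all. With the replicate block on Control and HFD+Mino it was 1, 3, 2 and 3, with 1078, 4441, 551 and 2283 genes called in all. With the replicate block on all 9 libraries it was 0, 1, 0 and 0, with 284, 1369, 0 and 488 in all. At an FDR under 0.05 it was 1, 4, 0 and 4, with 1001, 4757, 0 and 2258 in all. It stayed at 0 with RLE scaling, without ribosomal and mitochondrial genes, with GC or length trends removed, with no fold threshold and, for the pairwise tests, with 6 libraries. Leaving out each mouse in turn gave 0 to 1, 0 to 4, 0 to 1 and 0 to 5 of the 10 called. The same fits called 59 to 550, 29 to 3815, 0 to 1120 and 3 to 2396 genes in all. Some fitted values changed sign, most of them near 0. Npy in HFD against Control went to 0.09 and 0.01 with the replicate block on all 9 libraries and on Control and HFD+Mino alone, and ran from -0.48 to 0.41 with a mouse left out. Vip in HFD+Mino against Control went to 0.19 and 0.34 with the same blocks and ran from -0.91 to 0.80. Pomc in HFD against Control went to 0.16 with the length trend removed and ran from -0.24 to 0.07. Cartpt in HFD+Mino against Control went to -0.49 with the length trend removed and ran from -0.28 to 2.62, and in HFD against Control, where it was -1.61, it ran from -2.13 to 0.80. With the length trend removed, the values of HFD+Mino against HFD were smaller, at 1.09 against 2.21 for Npy. In HFD+Mino against Control, Npy went from 2.06 to 1.07, Pomc from 1.61 to 0.85 and Ghrh from 1.52 to 0.38. There Agrp went from 1.48 to 0.44, Gal from 2.46 to 1.79 and Kiss1 from 3.24 to 2.70. Hcrt and Pmch moved the other way, from -6.46 to -7.46 and from -5.10 to -6.14. The r of Pomc with Cartpt went to -0.222, of Pmch with Cartpt to -0.0729 and of Agrp with Pomc to -0.465 without the 2 farthest libraries, and that of Pmch with Hcrt to 0.872 (adjusted exact permutation p 0.111) centred on groups. Among values with a mouse left out, 256 kept direction and side of the threshold, 6 passed it and 8 changed sign, and among the other alternatives the counts were 242, 22 and 6. The 242 include the Cartpt values with DESeq2, which had no FDR. The causes of these changes were not tested. Agrp, Kiss1 and Hcrt rest on under 30 counts in several libraries, which limits their fold changes.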
